A study of Rattus norvegicus with 15 samples.

Results

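Hearts of male Sprague-Dawley rats made diabetic with streptozotocin were set, as 1 body of samples, against hearts of vehicle-treated controls. The values asked for are those that both diabetic regimens have in common. What was tested is the mean of both regimens, which 1 regimen alone can carry. The members are the 10 arrays whose labels place them after streptozotocin, out of 15 arrays in the series. The remaining 5 arrays are controls. All streptozotocin rats received 1 dose of 60 mg/kg through the tail vein and had plasma glucose above 300 mg/dL. The DM group (5 arrays, replicates 1 to 5) received nothing further. The GF group (5 arrays, replicates 1, 2, 4, 5 and 6) was in addition starved for 24 h and injected with insulin at 0.5 IU/kg into the peritoneum, which per the labels made plasma glucose fluctuate. Controls (5 arrays, replicates 1 to 5) were exposed to vehicle, and the labels do not say whether they were starved. The rats' ages and the time from injection to sampling are not given in the sources used here. Nothing in the labels ties an array to an animal of its own, and the p-values therefore measure only how far these samples spread, which may be technical.

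Streptozotocin is taken up by insulin-producing beta cells of the pancreas and destroys them, so the rats lose insulin and their glucose stays high. The drug, the loss of beta cells and the high glucose came together in DM rats, and GF rats were starved and given insulin on top of them, so the parts of each cannot be told apart. MicroRNAs (miRNAs) are short RNAs that pair through their seed, bases 2 to 8, with messenger RNAs and lower their output. In heart they include miRNAs made in muscle cells (miR-1, miR-133, miR-208, miR-499), miRNAs of blood and vessel cells (miR-451, miR-223, miR-126), and miRNAs that act on fibrosis, growth and cell death (miR-29, miR-17, miR-34). In bulk tissue, fewer cells of a type and less RNA per cell cannot be told apart.

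The sequences below are those of the miRNAs that the comparison turns on and of their closest relatives, from RefSeq (GRCr8), written 5′ to 3′ with the seed in capitals. The first set is the pair with the largest differences on the higher side, which lie next to each other on the minus strand at chr4:159209540-159209989.
miR-200c: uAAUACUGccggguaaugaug
miR-141: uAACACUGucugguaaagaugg
The next set holds members of the cluster that runs from miR-17 to miR-92a (chr15:98587861-98588622, plus strand), followed by relatives with the same seed from the miR-106b-25 cluster (chr12:22156652-22157123, minus strand), shown because their values differed in direction or size.
miR-17: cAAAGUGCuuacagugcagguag
miR-20a: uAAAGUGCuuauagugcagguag
miR-93: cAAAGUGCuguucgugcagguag
miR-106b: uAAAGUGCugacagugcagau
Next are the miRNAs encoded within myosin heavy chain genes, whose differences were unequal.
miR-208: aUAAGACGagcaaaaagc
miR-499: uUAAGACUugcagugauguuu
Then come the minor arm of miR-22, which had the smallest p of all, and the main arm of the same hairpin.
miR-22*: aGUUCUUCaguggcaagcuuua
miR-22: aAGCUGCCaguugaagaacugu
The last set is the neighbouring pair of the miR-15/16 seed family, on the plus strand at chr10:55450172-55450529.
miR-497: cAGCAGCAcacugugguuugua
miR-195: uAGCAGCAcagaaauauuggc

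Arrays that matched each other within the scanner's stated error were averaged before any comparison. Over 105 pairs of arrays, 5 pairs differed by less than the sampling noise of the scanner (reduced chi-square 0.252 to 0.565, against 1.01 to 7.88 for the others). They joined control 1 with 3, DM 2 with 4, DM 3 with 5, GF 1 with 5 and GF 2 with 4, and each pair was counted as 1 sample. This left 6 diabetic samples (3 DM and 3 GF) and 4 controls. Of 350 miRNAs on the array, 165 were bright enough to test. Below, "log2 signal" is the scaled signal of a miRNA's brightest probe, and "difference" is the mean of DM and GF minus control in log2. The 75th percentile signal per array before scaling was 2404 ± 555 (SD, n = 6) in diabetic and 2205 ± 261 (SD, n = 4) in control samples (exact permutation test, two-sided, p = 0.533, the smallest possible being 0.00476). The DM samples averaged 2027 ± 256 (SD, n = 3), and the GF samples averaged 2780 ± 529 (SD, n = 3). Precision is limited by the small number of arrays.

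Samples did not all lie with their group. Control 5 was closer to DM 1 (reduced chi-square 1.17), DM 2 (2.10) and DM 4 (2.09) than to any other control array (3.51 to 4.98). The averaged sample DM 3+5 had a root-mean-square log2 distance of 0.406 to the GF samples, 0.493 to controls and 0.531 to the other DM samples. The labels give no reason to move either sample, and both stayed in their groups. The count past the adjusted threshold between diabetic and control hearts, and the count of miRNAs whose groups do not overlap, are also given without control 5, and values of DM 3+5 are named where they stand apart. The choice of control 5 came from its values on these same arrays. Leaving out a control that lies near DM tends to widen the differences and narrow the control spread. For miR-200c the control SD went from 0.71 to 0.093. Differences, p-values and counts without control 5 are therefore no separate support.

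The miRNAs with the smallest p between diabetic and control hearts are given first, and none passed the threshold with every sample in. The epithelial pair miR-200c and miR-141 and, by smaller amounts, members of the miR-17 cluster, miR-34a, miR-223 and miR-101a read higher. The cardiac miR-208, the minor arm miR-22*, miR-342-3p and miR-181d read lower. With all 10 distinct samples 0 of 165 miRNAs passed an adjusted p of 0.05 (limma with Benjamini-Hochberg adjustment; percent called 0). At an unadjusted p under 0.05 there were 42 (25.5% of those tested), 16 higher (9.7%) and 26 lower (15.8%). Without control 5, the control singled out for lying near DM, 19 passed (11.5%), 12 higher (7.27%) and 7 lower (4.24%). With all 15 arrays taken as independent, 44 passed (26.7%), 19 higher (11.5%) and 25 lower (15.2%), a count that treats the repeated pairs as separate samples. The arrays were on a pair of slides that both held all groups. With slide as a block over the 15 arrays 43 passed, and within slide 1 or slide 2 alone 0 did (limma; 40 and 38 at an unadjusted p under 0.05). Leaving out a DM sample also brought calls among the 165. Without DM 1 there were 6: miR-200c and miR-141 higher, and miR-22*, miR-451, miR-144 and miR-335 lower. Without DM 2+4 there were 5: miR-200c, miR-141 and miR-101a higher, and miR-22* and miR-208 lower. Without DM 3+5 there were 2, miR-200c and miR-141, higher. DM 1 and DM 2+4 were the diabetic samples nearest to controls (root-mean-square log2 distance 0.369 and 0.419). DM 3+5 was at 0.493 and GF samples were at 0.486 to 0.546. Leaving out DM 1 or DM 2+4 tends to widen the differences, so these counts are no separate support. The median difference over all tested miRNAs was -0.0040, with 81 above 0 (49.1%) and 84 below (50.9%).

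The split between higher and lower depended on the scaling between arrays. At an unadjusted p under 0.05 it was 16 higher and 26 lower as scaled here, 24 and 21 with quantile normalization, and 29 and 7 when the 75th percentile was taken over all probes. Without any scaling it was 15 and 6, and with the hur control spots as the reference it was 18 and 3. The passing miRNAs differed too. With no scaling miR-200c and miR-141 passed; scaled to the control spots miR-34a joined them, and with the 75th percentile over all probes miR-101a did. With quantile normalization only miR-101a passed, and miR-200c and miR-141 both had a limma adjusted p of 0.0706. Under the values of the authors' deposited log2 table miR-200c and miR-141 passed in limma.

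The 24 miRNAs described most closely are the 12 with the smallest p on each side. Their limma adjusted p ran from 0.0677 to 0.0931, so none of the 24 passed with all 10 samples. Without control 5, 16 of the 24 passed, and all 24 passed over 15 arrays. All 24 had the same sign within slide 1 and within slide 2, and 0 changed sign in any of 30 alternative settings. Each of the 5 repeated pairs has an array on either slide and the 24 were chosen on these same arrays, so that is no separate support. The difference from control was larger in GF than in DM for 21 of them, with miR-451, miR-133a and miR-29a* as the exceptions. With no scaling this held for 13, of which 12 were on the higher side and 1 on the lower. Over all 165 tested miRNAs the median of GF minus DM was -0.084. The same count was not made over all of them, so 21 is not read as particular to the 24.

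**Figure D1:**
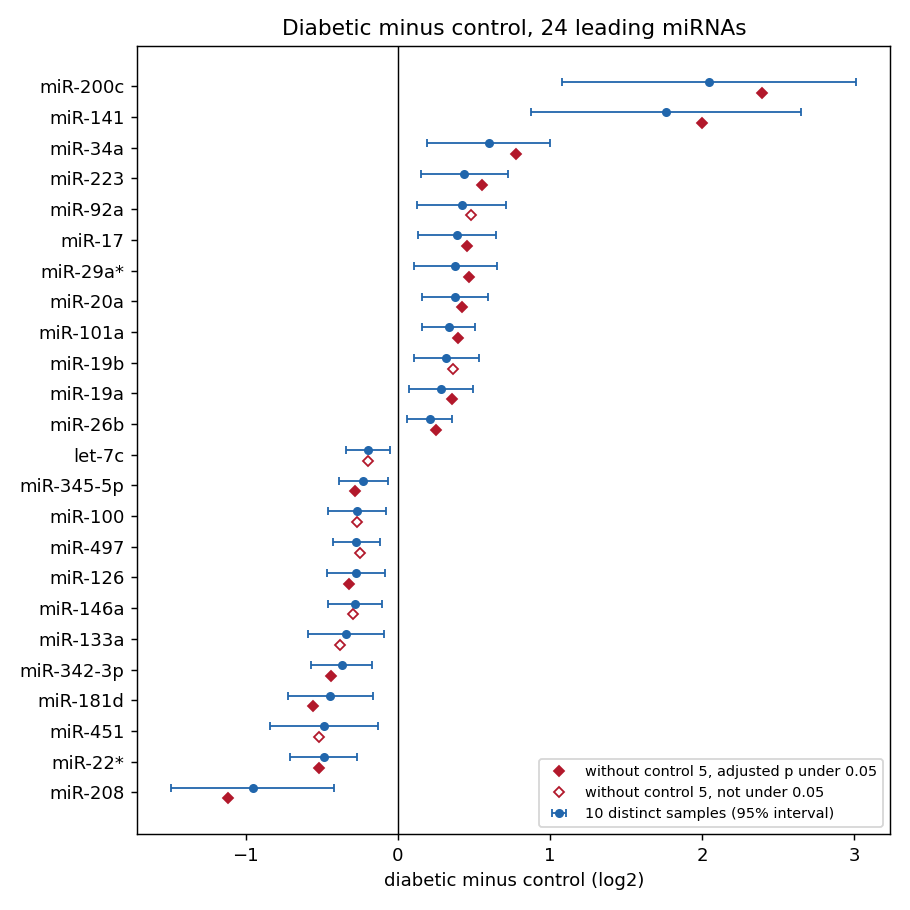
Difference between diabetic and control hearts (log2, horizontal axis) for the 24 miRNAs with the smallest p, 12 on each side. Circles with bars are the limma estimate and 95% interval over 10 distinct samples; diamonds are the estimate without control 5, filled where the adjusted p was under 0.05. The intervals of miR-200c and miR-141 are the widest, and 16 of the 24 diamonds are filled. The choice to leave out control 5 came from these same values, so the filled diamonds are no separate support.

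miR-200c and miR-141 are miRNAs of epithelial cells that repress ZEB transcription factors and so hold cells in an epithelial state. For miR-200c the log2 signal was 5.03, 4.94, 4.84 and 6.34 in controls, the last being control 5. It was 6.28, 6.01 and 8.12 in DM (samples 1, 2+4 and 3+5) and 8.13, 7.71 and 7.76 in GF. All 6 diabetic samples lay above the first 3 controls, while control 5 lay above DM 1 and DM 2+4. The difference was 2.05 (SE 0.43; 4.13-fold; limma adjusted p = 0.0677), and 2.40 without control 5 (0.0188). It was 2.43 within slide 1 and 2.04 within slide 2, which share repeated samples. Without DM 3+5 it was 1.72, the lowest of any left-out sample. The size also depended on the background correction, with 1.15 under normexp.

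miR-141 had the same samples at its low and high ends. Of the 4 control samples, 3 were at the floor (4.31) and control 5 read 5.25. DM samples read 5.21, 4.77 and 6.99, and GF samples 7.23, 6.83 and 6.82. It was well above background on 2 of 5 control arrays, 5 of 5 DM arrays and 5 of 5 GF arrays. The difference was 1.76 (SE 0.40; limma adjusted p = 0.0677), 2.00 without control 5 (0.0212), and ranged from 0.88 with normexp to 2.41 with the authors' deposited values. As 3 control samples were at the floor, its size is set in part by that floor. Without control 5 all remaining controls were at the floor with no spread, and the p there rests on it. The control arrays alone would not have let miR-141 into the test, which it entered through the diabetic groups where it was high.

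The other members of the family did not share these values. miR-200a and miR-200b differed by 0.15 (SE 0.13) and 0.14 (SE 0.12), with highest values of 4.88 and 4.86 in DM 1, and GF minus DM was negative for both. Each was well above background on 1 of 5 control arrays and entered the test only through diabetic arrays. All controls but control 5 were at the floor, so the filter and floor go far to set their sign. miR-429 was above background on 0 of 15 arrays. Other markers of epithelium, liver, nerve and islet, namely miR-122, miR-124, miR-375, miR-205, miR-203, miR-216a and miR-217, were also above background on 0 of 15 arrays. Tested members of that list other than the miR-200 family were miR-192 (0.21), miR-194 (0.22), miR-128 (0.16), miR-7a (0.046) and miR-9 (-0.34), with 0 of 5 past the threshold.

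**Figure D2:**
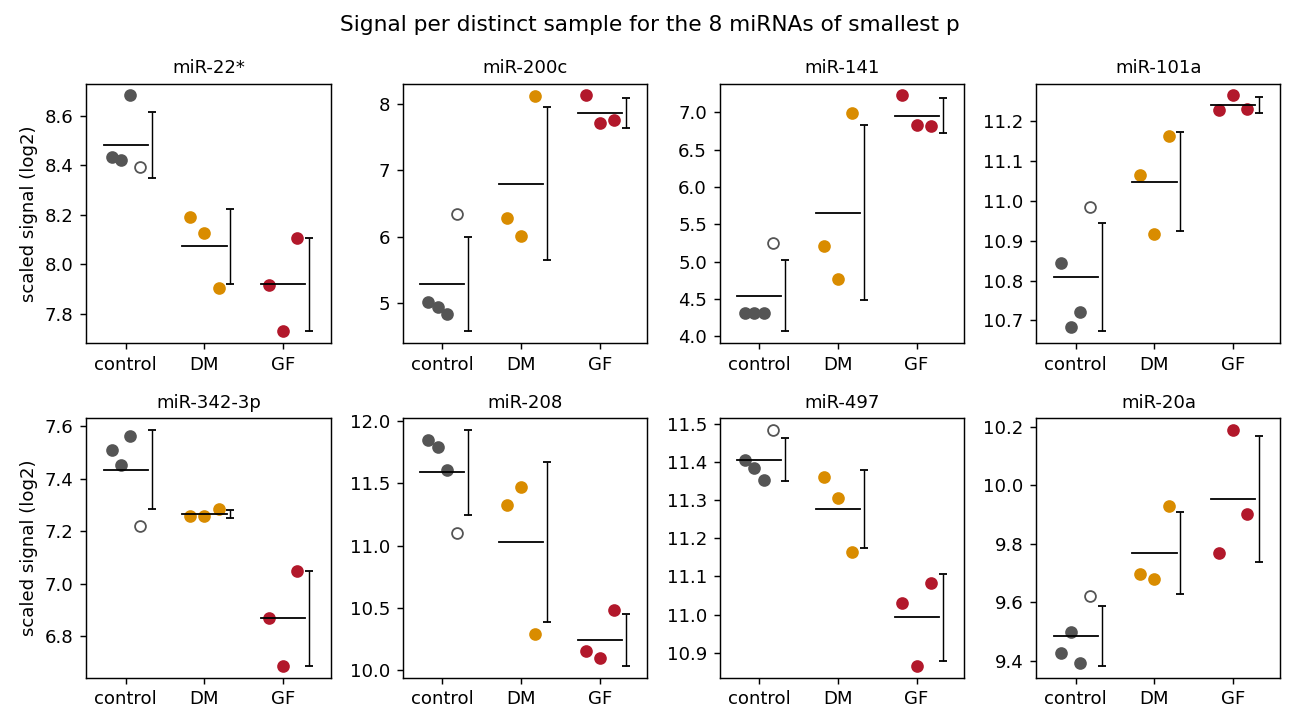
Scaled log2 signal (vertical axis, own range per panel) per distinct sample for the 8 miRNAs with the smallest p, in control, DM and GF hearts; horizontal lines are group means and bars 1 SD (n = 4, 3 and 3). The open circle is control 5, and for miR-200c and miR-141 it sits near the 2 lower DM samples while the highest DM sample, DM 3+5, sits with GF.

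Among muscle miRNAs all 5 tested members lay below 0, with a median difference of -0.25, against -0.0040 over all 165 tested miRNAs. Unadjusted p was under 0.05 for 3 of the 5, all lower, against 15.8% lower over all tested miRNAs, and 0 of the 5 passed after adjustment. miR-208, encoded in an intron of a cardiac myosin heavy chain gene and known for its part in switching myosin forms under stress, had the largest difference. Its log2 signal was 11.85, 11.80, 11.61 and, in control 5, 11.10. In DM it read 11.32, 11.47 and 10.29, and in GF 10.16, 10.10 and 10.49. The samples DM 3+5 and GF were together at the low end, below DM 1 and DM 2+4; those other DM samples lay above control 5. The difference was -0.95 (SE 0.24; control 1.93-fold over diabetic; limma adjusted p = 0.0677), and -1.11 without control 5 (0.0222).

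miR-133a represses growth signals in heart muscle. It read 11.25, 11.13, 11.69 and 11.19 in controls, 10.85, 11.10 and 10.96 in DM, and 11.03, 10.91 and 11.00 in GF. Every diabetic sample was below every control, control 5 included. The difference was -0.34 (SE 0.11; limma adjusted p = 0.0931), almost equal in DM (-0.35) and GF (-0.34). Its near copy miR-133b differed by -0.25 (SE 0.095), miR-499 by -0.15 (SE 0.081) and miR-1, the most common miRNA of striated muscle, by -0.14 (SE 0.10). miR-206 of skeletal muscle was above background on 0 of 15 arrays. Over the 5 scalings 4 or 5 of the 5 members lay below 0; with quantile normalization miR-1 was at 0.

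The cluster of miR-17 to miR-92a is 1 transcript that gives several miRNAs promoting cell growth and survival. Its 6 tested members all lay above 0 under each of 5 scalings. miR-18a entered the test only through the GF arrays, so its sign is no separate support. As scaled here the differences ran from 0.019 (miR-18a) to 0.42 (miR-92a), with a median of 0.35. Unadjusted p was under 0.05 for 5 of 6, against 9.7% higher over all tested miRNAs, and 0 of the 6 passed after adjustment. miR-20a read 9.43, 9.5, 9.39 and 9.62 in controls, 9.70, 9.68 and 9.93 in DM, and 9.77, 10.19 and 9.90 in GF. Here the groups did not overlap even with control 5 included. The difference was 0.38 (SE 0.097; limma adjusted p = 0.0677), and 0.42 without control 5 (0.0365).

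Apart from miR-18a, the other tested members of the cluster differed by amounts close to that of miR-20a. miR-17 differed by 0.39 (SE 0.11), miR-92a by 0.42 (SE 0.13), miR-19b by 0.32 (SE 0.095) and miR-19a by 0.28 (SE 0.094). Without control 5, miR-17, miR-20a and miR-19a passed (limma adjusted p = 0.0377, 0.0365 and 0.0365), and miR-19b (0.0507) and miR-92a (0.0568) did not. miR-18a lay near the floor, from 4.31 to 4.49. It was well above background on 2 of 5 control, 0 of 5 DM and 3 of 5 GF arrays, so GF alone let it into the test. GF 2+4 was the highest sample for miR-17, miR-18a, miR-19a, miR-19b, miR-20a and miR-92a. miR-17, miR-19b and miR-92a have identical mature sequences at a further locus on chromosome X in the RefSeq table, and the arrays cannot tell those copies apart.

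The related miR-106b-25 cluster did not share the direction. miR-93, which has the same seed as miR-17 and differs from it at 4 of 23 bases, read 7.53, 7.66, 7.63 and 7.58 in controls, 7.47, 7.50 and 7.30 in DM and 7.34, 7.54 and 7.22 in GF. The difference was -0.21 (SE 0.077; limma adjusted p = 0.134). miR-25 differed by -0.093 (SE 0.054) and miR-106b by 0.010 (SE 0.056); each of these 2 changed sign under another scaling. miR-17 and miR-20a differ at 2 of 23 bases, so probes may share signal between them, and this was not tested. These 3 miRNAs of the second cluster were chosen after their values were seen, for the contrast with the first. The whole list of both clusters, miR-18a included, had 7 of 9 tested members above 0 and a median of 0.28.

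miR-34a, a target of p53 linked with cell death and ageing of the heart, was among the larger differences. It read 10.25, 10.37 and 10.27 in control 1+3, 2 and 4 and 11.00 in control 5. DM samples read 10.81, 10.73 and 11.44, and GF samples 11.10, 11.13 and 11.22. Control 5 was above DM 1 and DM 2+4, and the other controls were below all diabetic samples. The difference was 0.60 (SE 0.18; 1.52-fold; limma adjusted p = 0.0916), and 0.78 without control 5 (0.0188). The minor relatives miR-34b and miR-34c, which are encoded elsewhere, differed by -0.33 and -0.17, neither past the threshold.

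The list of fibroblast and cardiac stress miRNAs held no common direction. Of 16 tested members, 5 lay above 0 and 11 below, with a median of -0.10, which was -0.0059 with no scaling. miR-21, raised in many kinds of injured heart, differed by 0.27 (limma adjusted p = 0.179). The miR-199a arms and miR-214, from 1 transcript, differed by -0.23, -0.29 and -0.31. The largest value of the list, -1.12 for miR-212, had an SE of 0.53 and an adjusted p above 0.05.

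The miR-29 family represses collagen genes, and raised levels have been tied to insulin resistance. All 3 members lay above 0, with differences of 0.23 (SE 0.11) for miR-29a, 0.29 (SE 0.13) for miR-29b and 0.15 (SE 0.092) for miR-29c. None of the 3 had an unadjusted p under 0.05, against 25.5% over all tested miRNAs. Without control 5 their differences were 0.34, 0.40 and 0.23 (limma adjusted p = 0.0513, 0.0624 and 0.0871). Control 5 was the highest control for each. The minor arm miR-29a* gave the most even values between regimens among the 24. It read 6.37, 6.19, 6.41 and 6.68 in controls, 6.98, 6.88 and 6.53 in DM and 6.96, 6.62 and 6.80 in GF. Its difference was 0.38 in DM and 0.38 in GF, with an adjusted p of 0.0916 for their mean in limma and 0.0377 without control 5.

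Among miRNAs tied to insulin action and glucose use, 10 of 12 tested members lay above 0, with a median of 0.14, and 2 (miR-34a and miR-223) had an unadjusted p under 0.05. Over all tested miRNAs 49.1% lay above 0 and 25.5% had such a p. miR-103 and miR-107, which lower insulin sensitivity in liver and fat, differed by -0.018 and 0.12. miR-26a differed by 0.11 and miR-26b, of the same seed, by 0.21 (SE 0.066; limma adjusted p = 0.0916, and 0.0377 without control 5). miR-320 differed by 0.061, miR-33 by 0.13 and miR-143 by 0.15. miR-375, the islet miRNA, was not above background. The miR-29 members and miR-34a stand in this list and in the stress list, so those lists are not separate.

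**Figure D3:**
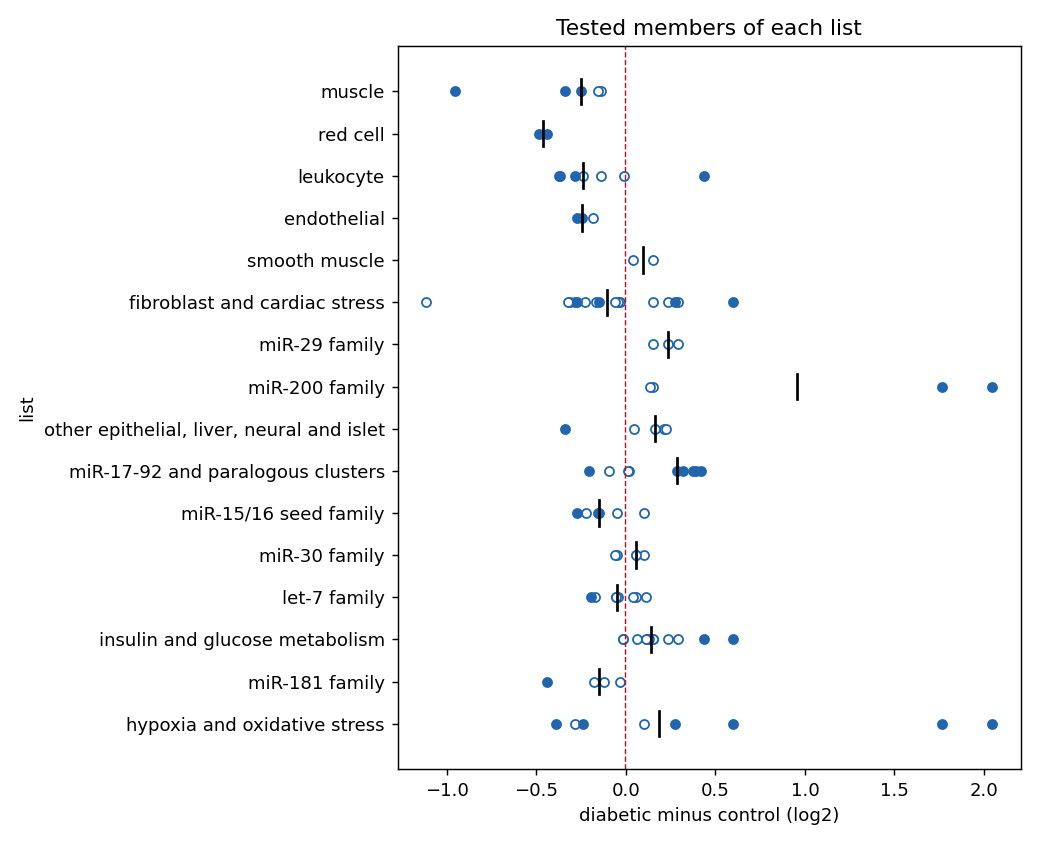
Difference between diabetic and control hearts (log2, horizontal axis) for each tested member of 16 lists; filled circles have an unadjusted limma p under 0.05, black ticks are list medians, and the dashed line is the median of all 165 tested miRNAs, -0.0040. Muscle, red cell, endothelial and miR-181 members all lie left of 0, and smooth muscle, miR-200 and miR-29 members all lie right of it. miR-141, miR-200a and miR-200b entered the test only through diabetic arrays, so their side is no separate support. Some miRNAs stand in several lists.

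Both tested miRNAs of red cells read lower in diabetic hearts, neither past the threshold. miR-451, which red cells hold in great amount, read 12.49, 12.66, 12.42 and 12.40 in controls, 12.38, 11.54 and 11.72 in DM, and 12.09, 11.97 and 12.35 in GF. All 6 diabetic samples lay under all 4 controls, but DM 1 and GF 6 were just below the lowest control. The difference was -0.48 (SE 0.16; limma adjusted p = 0.0916, and 0.0847 without control 5), with -0.61 in DM and -0.36 in GF. miR-144, its neighbour at chr10:63459446-63459606, differed by -0.44 (SE 0.16; adjusted p = 0.124). In the authors' deposited table, with no scaling between arrays, miR-451 stands at -0.76 in DM and -0.035 in GF against control in log2, and miR-144 at -0.72 and -0.036. The summed signal of both ran from 6148 to 7349 in controls, 3447 to 6177 in DM and 4603 to 5936 in GF. How much blood each heart held was not measured, and its part in these values was not tested.

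Leukocyte miRNAs went in both directions. miR-223, of neutrophils and monocytes and also linked to glucose uptake in heart muscle cells, differed by 0.44 (SE 0.13; limma adjusted p = 0.0916, and 0.0188 without control 5). It read 8.77, 9.13, 8.73 and 9.35 in controls and from 9.26 to 9.61 in diabetic samples, so that control 5 lay inside the diabetic range. miR-342-3p, found in lymphoid cells, read 7.51, 7.45, 7.56 and 7.22 in controls, 7.26, 7.26 and 7.28 in DM and 6.87, 6.69 and 7.05 in GF. Its difference was -0.37 (SE 0.090; adjusted p = 0.0677, and 0.0188 without control 5), with -0.17 in DM and -0.57 in GF.

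Of the rest, miR-146a, which restrains inflammatory signalling, differed by -0.28 (SE 0.078; limma adjusted p = 0.0916), with DM 1 and DM 2+4 (10.75 and 10.85) within the control range of 10.69 to 10.91 and the other diabetic samples from 10.31 to 10.51. Against control miR-146a differed by -0.098 in DM and -0.46 in GF. miR-142-5p differed by -0.37 and miR-142-3p by -0.24. For miR-142-3p, DM 1 and DM 2+4 (11.35 and 11.29) lay above the highest control (11.27). For miR-142-5p, DM 1 (6.85) lay above the highest control (6.82) and DM 2+4 (6.80) within the control range. miR-150 differed by -0.14 and miR-146b by -0.011. In all, 6 of 7 tested leukocyte members lay below 0. The list's summed signal ran from 6474 to 6762 in controls, 5539 to 6806 in DM and 5185 to 5914 in GF; whether cell number has a part in these differences was not tested.

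All 3 tested endothelial miRNAs read lower as well, and 0 of 3 passed with all samples. miR-126, which serves vessel growth and integrity, read 14.49, 14.23, 14.39 and 14.18 in controls, 14.30, 14.08 and 14.04 in DM, and 13.99, 13.88 and 14.00 in GF. DM 1 lay within the control range and the other diabetic samples below it. Its difference was -0.27 (SE 0.084; limma adjusted p = 0.0916, and 0.0445 without control 5), and that of the other arm miR-126* was -0.24. miR-221 differed by -0.18 (SE 0.14), and in slide 1 alone by 0.013. The summed endothelial signal ran from 19449 to 23958 in controls, 17632 to 20956 in DM and 15765 to 17115 in GF. Smooth muscle miR-143 and miR-145 differed by 0.15 and 0.041, with control 5 the highest sample for each.

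Other miRNAs among the 24 had small standard errors and small differences. miR-22* had the smallest p of all tested (0.000666 unadjusted, 0.0677 adjusted, limma). It read 8.43, 8.42, 8.68 and 8.39 in controls, 8.19, 8.12 and 7.90 in DM, and 7.92, 7.73 and 8.11 in GF. Control 5 was here with the other controls, and all diabetic samples were lower. The difference was -0.49 (SE 0.099), and -0.52 without control 5 (0.0222). The main arm, miR-22, abundant in heart and linked to its growth under stress, differed by -0.19 (SE 0.10; unadjusted p = 0.0988) and overlapped between groups.

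miR-101a, which targets genes of fibrosis and chromatin, read 10.84, 10.68, 10.72 and 10.98 in controls, 11.06, 10.92 and 11.16 in DM and 11.23, 11.26 and 11.23 in GF. Its difference was 0.34 (SE 0.077; limma adjusted p = 0.0677), and 0.39 without control 5 (0.0188). Only DM 2+4 lay below control 5. The miR-15/16 seed family halts cell division, and 0 of its 6 tested members passed. miR-497 differed by -0.27 (SE 0.068; adjusted p = 0.0677, and 0.0624 without control 5) and miR-195 by -0.15 (SE 0.065). Against control miR-497 differed by -0.13 in DM and -0.41 in GF. In that family 5 of 6 tested members lay below 0, miR-322 being above, and the median was -0.15, or -0.055 with no scaling.

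miR-181d differed by -0.44 (SE 0.12; limma adjusted p = 0.0916, and 0.0188 without control 5), and all 4 tested members of the miR-181 family lay below 0, though 1 crossed 0 under another scaling. miR-345-5p differed by -0.22 (SE 0.071), miR-100 by -0.27 (SE 0.086) and let-7c by -0.20 (SE 0.064). miR-100 read 10.35 to 10.53 in controls and 9.89 to 10.35 in diabetic samples, and let-7c 13.48 to 13.70 and 13.26 to 13.45. Among other let-7 members let-7b differed by -0.17 and let-7e by 0.11, with a family median of -0.048 that turned to 0.049 with no scaling. The miR-30 family, abundant in heart muscle, had a median of 0.055. Of its members 0 of 5 had an unadjusted p under 0.05, against 25.5% over all tested miRNAs.

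**Figure D4:**
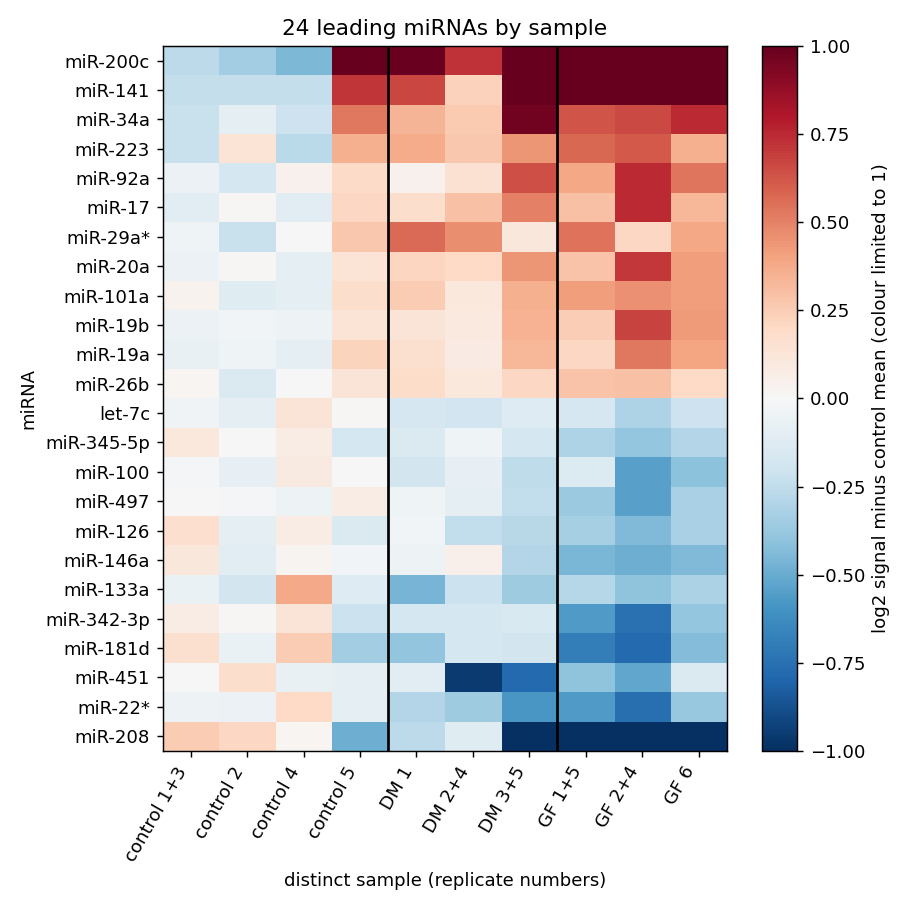
Log2 signal of the 24 leading miRNAs (rows) in the 10 distinct samples (columns), each minus the mean of the 4 controls, with colour limited at 1 in either direction; black lines part control, DM and GF. Control 5 shares the colour of the diabetic samples for miR-200c, miR-141, miR-34a and miR-208, and DM 3+5 that of GF for the same miRNAs.

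The list for low oxygen and oxidative stress had 5 of 8 members above 0, and shares miR-200c, miR-141 and miR-34a with lists above. Among its other members, miR-210, the miRNA that low oxygen raises most widely, differed by -0.24 (SE 0.087; limma adjusted p = 0.124, and 0.0212 without control 5). It is named after its values were seen, because it passed without control 5. It read 8.26, 8.37, 8.19 and 7.93 in controls and 7.84 to 8.05 in diabetic samples, so control 5 lay among the diabetic samples. miR-326 and miR-500 also passed in that fit (differences 0.44 and 0.33) and are named for the same reason.

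All 6 diabetic samples lay beyond all 4 controls for 7 of 165 miRNAs (4.24%). The higher ones were miR-20a and miR-185 (1.21%), and the lower ones miR-22*, miR-100, let-7c, miR-451 and miR-133a (3.03%). For some the groups barely parted. miR-185 had a diabetic minimum of 9.585 and a control maximum of 9.584. miR-100 had a diabetic maximum of 10.353 and a control minimum of 10.355. Those gaps are far below the SEs of 0.12 and 0.086. miR-185, named for this reason after its values were seen, read 9.33, 9.33, 9.39 and 9.58 in controls and from 9.59 to 10.20 in diabetic samples. Its difference was 0.36 (SE 0.12; limma adjusted p = 0.0965). Without control 5, 35 miRNAs separated (21.2%), 25 higher (15.2%) and 10 lower (6.06%). miR-200c, miR-141 and miR-208 separated only then.

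Whether the regimens differ was tested in the same fit as GF minus DM, with 3 samples each. The controls do not enter that estimate, but they do enter the spread it is tested against. With all 10 samples 0 of 165 passed (limma; lowest adjusted p = 0.272), and 18 (10.9%) had an unadjusted p under 0.05, 2 higher (1.21%) and 16 lower (9.7%) in GF. A p that misses the threshold does not show that the regimens act alike. Without DM 3+5, the DM sample nearest to GF, 6 of 165 passed, 1 higher and 5 lower. That sample was singled out from these same values, and leaving it out tends to widen GF minus DM. Those 6 calls are therefore no separate support. With no scaling the median of GF minus DM moved from -0.084 to 0.35 and the split at an unadjusted p under 0.05 from 2 higher and 16 lower to 47 and 1, so directions of small regimen differences depend on the scaling.

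Among the 24, 7 had an unadjusted p under 0.05 for GF minus DM, against 10.9% over all tested miRNAs. The 24 were chosen by small p in the same fit, whose spread GF minus DM shares. The count is therefore not read as a result about them. miR-141 differed by 1.30 (SE 0.50), and miR-208 by -0.78 (SE 0.30), with the same sign under each of the 5 scalings. miR-200c differed by 1.06 (SE 0.55; unadjusted p = 0.0814), also with the same sign throughout. miR-342-3p (-0.40), miR-497 (-0.28), miR-146a (-0.37) and miR-181d (-0.38) turned to 0.049, 0.16, 0.080 and 0.062 with no scaling. miR-345-5p differed by -0.21, and by 0.24 with no scaling. For the pair of the epithelial family, DM minus control was 1.51 (miR-200c) and 1.11 (miR-141), and GF minus control 2.58 and 2.41; these comparisons share the control samples.

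**Figure D5:**
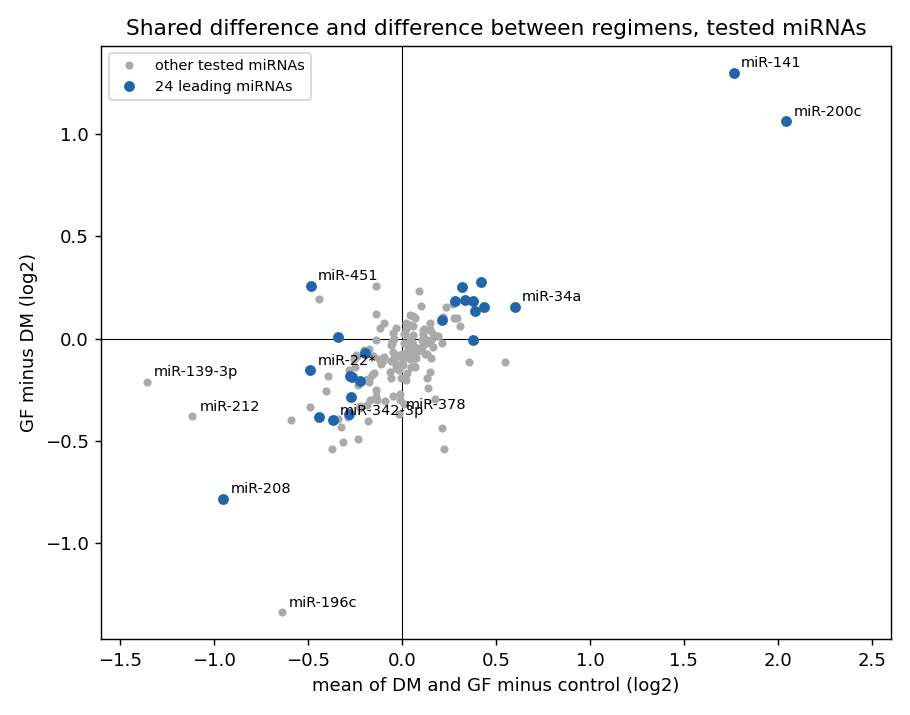
Mean of DM and GF minus control (log2, horizontal axis) against GF minus DM (log2, vertical axis) for 165 tested miRNAs, with the 24 leading ones in blue. miR-200c and miR-141 lie at the upper right, miR-208 at the lower left, and miR-22* and miR-34a have a GF minus DM of -0.15 and 0.16.

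A further pair was named for small p in GF minus DM. miR-378, encoded in the gene of a metabolic coactivator, differed by 0.17 from control in DM and by -0.20 in GF, for a mean of -0.017 (SE 0.074). GF minus DM was -0.37 (limma adjusted p = 0.272), and 0.077 with no scaling. miR-196c, a miRNA of the Hox clusters, read 6.72, 6.67, 6.83 and 5.68 in controls, 6.18, 6.57 and 6.76 in DM and 5.66, 5.53 and 4.31 in GF, the last at the floor. GF minus DM was -1.34 (SE 0.39) and the mean difference from control -0.64 (SE 0.31; adjusted p = 0.223). Control 5 lay with the GF samples.

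Large values did not always come with small errors. miR-139-3p had the largest negative difference of all 165, -1.36, with an SE of 0.57 and a limma adjusted p of 0.179. miR-184 stands among the large changes of the authors' deposited table, at 3.24 for DM and 2.31 for GF against control in log2. In the array files it was well above background on 0 of 5 control, 3 of 5 DM and 0 of 5 GF arrays. With the floor used here the difference was 0.070 (SE 0.079), and with a floor of 1 it was 2.39, so its size is set by the floor. miR-139-3p and miR-184 were singled out after their values were seen.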

How the data were processed

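Total RNA (100 ng) of rat heart was labelled with Cy3 and hybridised to one-colour Agilent miRNA arrays, per the labels. Per the file headers, Agilent Feature Extraction 9.5.3.1 produced the files; the deposited files hold background-subtracted signal intensity per spot, not scaled between arrays. The authors' deposited log2 table of 149 miRNAs is the log2 total gene signal minus the control mean, as recomputed here (largest difference 2.05e-06). The authors' deposited comparison table gives log2 changes and an uncorrected p-value for 3 groups, per the file headers.

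Here flagged spots were dropped, signals were scaled to the 75th percentile over the 254 probes above background on all arrays, floored at 19.8 (log2 4.31), and the brightest probe was kept. Testing required a probe above background on 3 or more of the 5 arrays in some group. Per array 166 to 190 miRNAs were detected and 0 spots saturated. Limma 3.58.1 (R 4.3.3) fitted 3 group means over 10 distinct samples, with Benjamini-Hochberg adjustment and a threshold of 0.05, two-sided; the script was tested on simulated data. Figures used matplotlib 3.10.9.

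The miRNAs named were the 12 of smallest p on each side, the 5 of smallest GF minus DM p, and tested members of the muscle, red cell, leukocyte, endothelial, smooth muscle, miR-29 and miR-200 lists. Members and the 16 lists were chosen with earlier results of these data known. Alternatives changed the samples, slide, scaling, background, summary, filter, floor and variance model. The normexp alternative used the median spot signal. Slide and scan coincide. Of 39 miRNA names looked up in RefSeq, 37 matched. miR-486 and miR-155 were not analysed here.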

Additional observations from a re-analysis of the deposited data

Results flagged for a closer look

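In 86 groups of samples checked for 1 value far from the rest, 11 stood out. The groups share the same samples and hold miRNAs mostly named from these values, so no chance rate is set beside that count. For miR-141, miR-200a and miR-200b the other controls were all at the floor, so any control value off the floor was bound to be flagged. Control 5 accounted for 8 of the 11. It lay above the other controls for miR-200c (6.34, next 5.03), miR-141 (5.25, next 4.31), miR-19b (10.53, next 10.37), miR-34a (11.00, next 10.37), miR-19a (7.75, next 7.49), miR-200a (4.57) and miR-200b (4.56), the last pair with all other controls at the floor. It lay below them for miR-196c (5.68, next 6.67). Control 4 lay above the other controls for miR-22* (8.68, next 8.43). Among the diabetic samples GF 1+5 was highest for miR-29b (15.47, next 15.25) and miR-29c (13.35, next 13.19).

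For miR-378 every DM sample lay above the control mean and every GF sample below it, and GF minus DM was -0.37 on the log2 scale (limma adjusted p = 0.272).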

How the results depend on the processing

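The count of miRNAs past the threshold between diabetic and control hearts, 0 with 10 distinct samples, was 44 with all 15 arrays as independent, 43 with slide as a block, 12 with the repeated pairs as a random block, 5 with an intensity trend, 3 with the 75th percentile over all probes, 3 scaled to the hur control spots, 2 with no scaling, 2 with the authors' deposited values and 1 with quantile normalization. It was 0 with 8 samples after further merging, the 2-group fit, each slide alone, normexp, probe means, total gene signal, a floor of 1 and either other filter. Leaving out 1 distinct sample gave 0 to 19: 19 without control 5, 6 without DM 1, 5 without DM 2+4, 2 without DM 3+5 and 0 for each of the rest. GF minus DM, also 0, was 6 with 15 arrays, 5 with slide as a block, 1 with no scaling, 1 with normexp and 0 to 6 over left-out samples. Same-numbered samples correlated from -0.53 to 0.47 (13 pairs, 6 over 0.1), which does not settle whether the numbers pair samples. With the replicate block 42 miRNAs passed between diabetic and control hearts and 1 in GF minus DM.

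Of the 43 miRNAs named by rule, 4 changed sign in some setting, and miR-1 was at 0 with quantile normalization. miR-146b was 0.0070 with 15 arrays, 0.039 in slide 1, 0.063 with the 75th percentile over all probes, 0.086 with no scaling, 0.025 with quantile normalization, 0.067 with the control spots, 0.032 under normexp, 0.0013 for probe means, 0.093 with the authors' values and -0.046 to 0.037 over left-out samples (0.018 without GF 1+5, 0.024 without DM 3+5, 0.037 without control 5, and -0.038 without control 4). miR-378 was 0.024 in slide 1, 0.00013 with the replicate block, 0.057 with the 75th percentile over all probes, 0.080 with no scaling, 0.030 with quantile normalization, 0.061 with the control spots, 0.058 with the authors' values and -0.052 to 0.026 over left-out samples (0.026 without control 1+3, 0.023 without GF 6). miR-221 was 0.013 in slide 1, and miR-145 was -0.0076 for probe means and -0.097 to 0.21 over left-out samples (-0.025 without control 1+3, -0.097 without control 2, -0.00337 without GF 1+5). The cause was not tested. Dim miRNAs (miR-141, miR-200a, miR-200b, miR-18a, miR-184) are limited by the floor.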
